A study of Mus musculus with 11 samples.

Results

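The 10 genes described here encode the abundant ATP-driven chaperones of the cytosol and the mitochondrion and the partners that act directly with them. They are Hspa1a, Hspa1b and Hspa8 of the HSP70 family, Hsph1 of the HSP110 family, Dnaja1 and Dnajb1 of the HSP40 family, Hsp90aa1 and Hsp90ab1 of the HSP90 family, and the mitochondrial pair Hspd1 (HSP60) and Hspe1 (HSP10). They were taken by name from the 55487 genes in the deposited tables, all 10 were found, and all 10 passed the filter on low counts. RNA came from the gastrocnemius, a mixed hindlimb muscle, as 3′ tags, a method that sequences 1 short read next to the poly(A) tail of each captured transcript. The libraries were 4 from Raptor mTOR double-knockout mice (DKO), 3 from Raptor knockout mice (KO) and 4 from wild-type mice (WT). Raptor is found only in mTOR complex 1, whereas the kinase mTOR is part of both mTOR complexes. Both knockouts used floxed alleles and a tamoxifen-inducible Cre whose promoter, that of human skeletal actin, works in myofibres and not in the other cells of the muscle. Every group, wild type included, is labelled as tamoxifen-treated: the drug was started at 3 months of age, given in chow for 7 weeks, and muscle was taken 7 months after its start. Whether the wild-type mice carried Cre or floxed alleles, and the sex of the mice, are not given in the labels.

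HSP40 proteins bring unfolded substrates to HSP70 and start its ATP cycle, HSP110 proteins such as Hsph1 release the nucleotide and restart it, and HSP90 receives late folding intermediates of kinases and steroid receptors from HSP70. HSP60 forms a barrel in the mitochondrial matrix that HSP10 closes as a lid. Hspa8 and Hsp90ab1 are the forms cells make constantly, whereas Hspa1a, Hspa1b, Hsp90aa1, Hsph1 and Dnajb1 are textbook targets of heat shock factor 1, which binds repeats of the 5-base unit nGAAn in promoters; in muscle, HSP70 and HSP90 also serve the folding and assembly of myosin.

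Library totals were 2791339 to 3536731 counts in DKO, 3223797 to 3764879 in KO and 3134575 to 6328533 in WT. DKO replicates 3 and 4 came from a different sequencing run than the other 9 libraries. The 2 runs are called smaller and larger here by the number of libraries used, and their full sizes are not known. Rptor, which encodes Raptor, stood at 4.07 to 5.37 counts-per-million (CPM, scaled between libraries by TMM) in DKO and 3.85 to 4.99 CPM in KO, against 8.57 to 10.6 CPM in WT. Mtor stood at 31.8 to 39.5 CPM in DKO, against 18.2 to 22.6 CPM in KO and 15.2 to 28.2 CPM in WT, and was 1.71-fold higher in DKO than in WT (edgeR, adjusted p = 0.00534). Its deposited mean transcripts-per-million differed more, at 33.0 in DKO, 2.96 in KO and 3.27 in WT, and why was not tested. A 3′ tag outside the deleted exons does not check the deletion, and those exons are not given in the sources used here. Xist is transcribed from the silenced X of females. It had 95.6 to 208 CPM in DKO replicates 1 to 3 and 117 CPM in WT replicate 3, and 0 to 0.291 CPM in the other 7 libraries. Results are therefore also given without the 4 libraries with Xist. This leaves DKO replicate 4 as the only double knockout, assumed to vary like the libraries of the other groups. That library is of the smaller run, and all KO and WT libraries are of the larger run. In those fits DKO cannot be told apart from the run, and what changed a DKO value was not tested. The mean log2 CPM of 19 immediate early genes, which respond within minutes to stimulation or handling, was 4.67 to 5.35 in DKO and 4.18 to 4.27 in KO, against 3.46 to 4.79 in WT, where replicate 3 was the highest. The DKO and KO ranges did not overlap, so this mean is partly confounded with genotype. A fit with it as a covariate can also take out a genotype difference, and what it took out was not tested. Myofibre markers summed to 96935 to 119798 CPM in DKO, 97426 to 106125 CPM in KO and 101656 to 123646 CPM in WT, and none of the 10 was at 0. The sum hides opposite changes. At an adjusted p under 0.05 (edgeR), Acta1, Myh7 and Myh1 were higher and Actn3, Myh4 and Tnnt3 lower in each knockout against WT. Over all tested genes 26.7% passed in DKO and 18.2% in KO. The part of fibre type in the chaperone results was not tested. Markers of satellite cells and myoblasts summed to 245 to 345 CPM in DKO and 163 to 231 CPM in KO, against 67.2 to 87.0 CPM in WT, those of fibroblasts to 2154 to 2405 CPM in DKO and 1916 to 2055 CPM in KO, against 1138 to 1829 CPM in WT, and those of macrophages to 200.2 to 278 CPM in DKO and 141 to 302 CPM in KO, against 95.8 to 178 CPM in WT. In whole muscle, more cells of a type and more RNA per cell cannot be told apart. Which cells, myofibres included, held the marker RNA is not known. The part of cells other than myofibres in the results was not tested.

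Double-knockout muscle held more RNA of both stress-inducible HSP70 genes, of constitutive Hspa8, of both cytosolic HSP90 genes and of the HSP40 gene Dnajb1 than wild-type muscle, by 1.58-fold to 5.97-fold, and the other 4 genes did not pass the test. Of the 10 genes, 6 were called higher and 0 lower at an adjusted p under 0.05 (edgeR), where 26.7% of all 10505 tested genes were called, 13.0% higher and 13.7% lower. The count was 1 without the Xist libraries (Hspa1b) and 1 with the immediate early gene mean as a covariate (Hsp90ab1). The median log2 fold change was 0.73 over the 10 genes and 0.02 over all tested genes. Raptor knockout muscle shared 4 of these calls in its own comparison with the same wild-type libraries, namely Hspa1a, Hspa1b, Hspa8 and Hsp90ab1, by 1.5-fold to 3.59-fold, and Hsph1 was called lower. Without the Xist libraries 3 of the 10 were called there. With all libraries 18.2% of all tested genes were called in KO against WT, 8.73% higher and 9.43% lower, and the median log2 fold change was 0.20 over the 10 genes and 0.00 over all. Between double knockout and Raptor knockout 0 of the 10 passed the test with edgeR, where 0.0286% of all genes, or 3, were called. Of the 10 genes Hsp90aa1, Dnajb1 and Dnaja1 had an unadjusted p under 0.05, against 9.49% of all genes, and the DESeq2 Wald test called Hsp90aa1 alone.

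**Figure D1:**
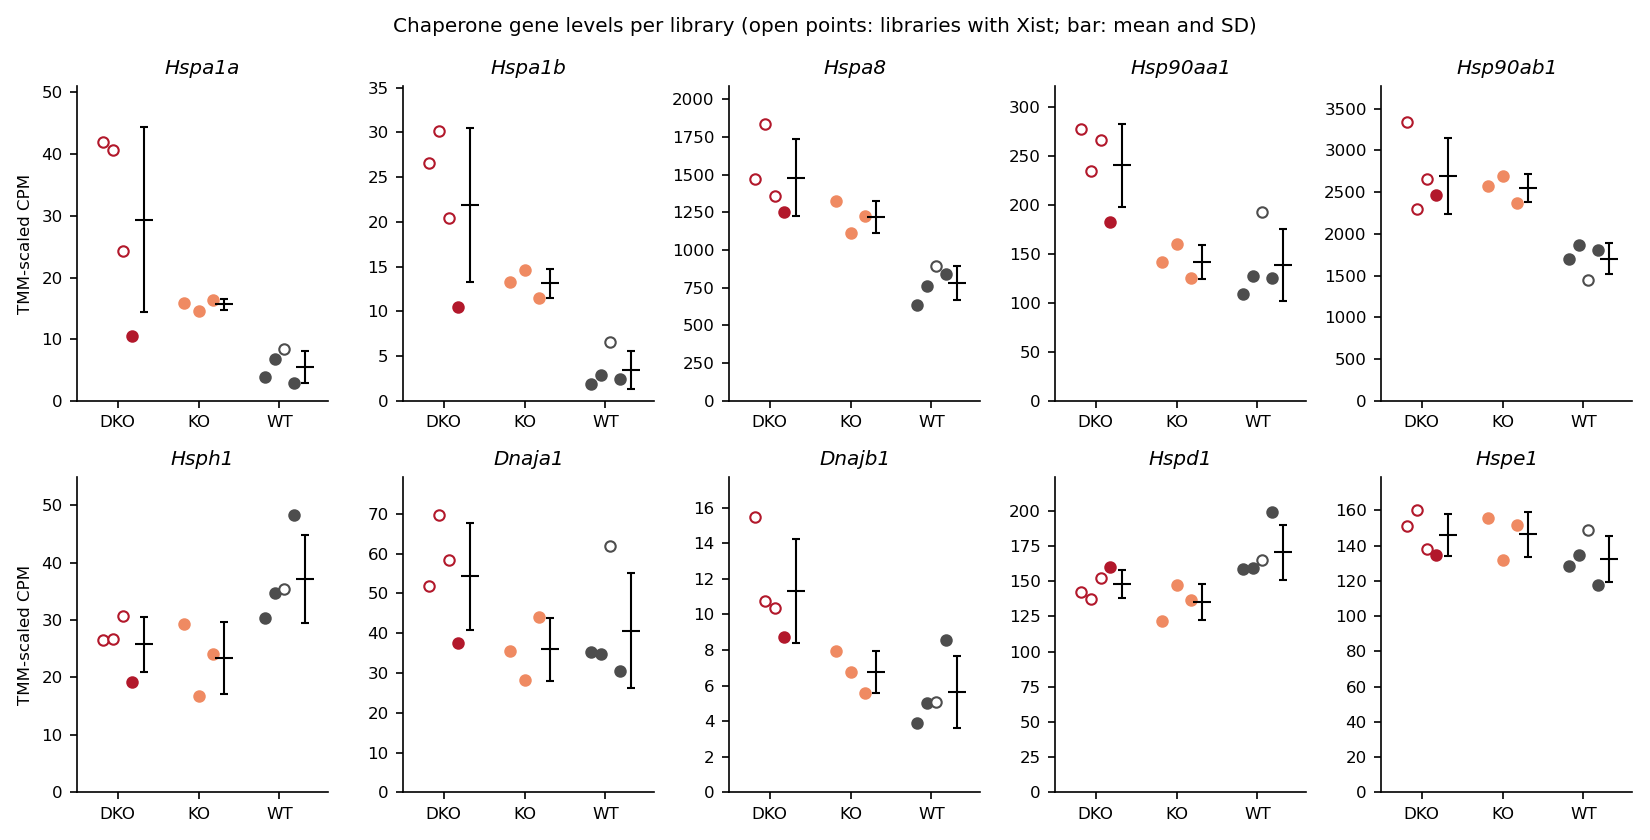
TMM-scaled CPM of each chaperone gene (y axis, linear, from 0) in each library of the double knockout (DKO), the Raptor knockout (KO) and the wild type (WT); open points are libraries with Xist, and the bar beside each group is the mean with its SD. Hspa1a, Hspa1b, Hspa8 and Hsp90ab1 lie above all wild-type libraries in both knockouts, whereas Hspe1 overlaps between all 3 groups.

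The stress-inducible HSP70 genes Hspa1a and Hspa1b encode nearly the same protein and lie 9951 bases apart on chromosome 17 (GRCm38), Hspa1a at 34969190 to 34972156 and Hspa1b at 34956436 to 34959238, both on the minus strand and each with 1 annotated transcript. Hspa1a had 42.0, 40.7, 24.4 and 10.5 CPM in DKO libraries and 15.9, 14.6 and 16.4 CPM in KO libraries, against 3.91, 6.79, 8.39 and 2.93 CPM in WT libraries. Hspa1b had 26.5, 30.2, 20.4 and 10.5 CPM in DKO libraries and 13.3, 14.6 and 11.4 CPM in KO libraries, against 1.84, 2.86, 6.58 and 2.48 CPM in WT libraries. For both genes every knockout library of either kind lay above every wild-type library, the 3 KO libraries lay close together, and DKO replicate 4 was the lowest knockout library of all. Hspa1a was higher in DKO than in WT by 2.40 ± 0.42 on the log2 scale (SE), or 5.26-fold (edgeR quasi-likelihood, adjusted p = 0.00129), and higher in KO than in WT by 1.49 ± 0.46, or 2.81-fold (adjusted p = 0.0432). Hspa1b was higher in DKO than in WT by 2.58 ± 0.38, or 5.97-fold (adjusted p = 0.00019), and in KO than in WT by 1.84 ± 0.41, or 3.59-fold (adjusted p = 0.00651). Between DKO and KO the log2 differences were 0.91 ± 0.42 for Hspa1a (adjusted p = 0.532) and 0.73 ± 0.36 for Hspa1b (adjusted p = 0.56), and neither passed the test.

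Among the 4 DKO libraries, replicate 4 had the lowest values of both genes, the least Xist and the lowest immediate early gene mean. This pattern rests on 1 library, and the part of these features was not tested. Without the 4 Xist libraries, only DKO replicate 4, of the smaller run, was left. The DKO against WT difference was then 1.23 for Hspa1a and 2.12 for Hspa1b, and the DKO against KO difference turned to -0.57 and -0.32. With the immediate early gene mean, itself partly confounded with genotype, as a covariate the DKO against WT values were 1.03 (adjusted p = 0.355) and 1.06 (adjusted p = 0.126). Without the 2 DKO libraries of the smaller run they were 2.89 (adjusted p = 5.57e-05) and 2.95 (adjusted p = 0.000133). The KO against WT differences, with 3 KO and 3 WT libraries of 1 run left, were 1.80 (adjusted p = 0.0042) and 2.44 (adjusted p = 0.000767) without the Xist libraries. The Hspa1a call in KO held in 15 of 23 settings. It was lost with any KO library left out, without WT replicate 1, 2 or 4, with no filter on low counts and with limma on TPM at a pseudocount of 1 (adjusted p from 0.0613 to 0.17). The Hspa1b call in KO held in all 23. The 11 libraries held 684 counts of Hspa1a and 521 of Hspa1b, so single libraries rest on few reads.

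The 2 genes could be told apart by their 3′ ends. Their transcripts are 94.3% identical over 2722 aligned bases, but the longest run they share within their last 300 bases is 10 bases, and all their deposited counts were whole numbers, whereas those of Hspa8, Hsp90aa1 and Hspe1 held parts of reads in all 11 libraries. Summed into 1 row, the pair was higher in DKO than in WT by 2.49 ± 0.40 (adjusted p = 0.000796) and in KO than in WT by 1.66 ± 0.43 (adjusted p = 0.0195). Hspa1a overlaps the predicted gene Gm20481 on the other strand, and the strand setting of the counting was not given in the sources used here.

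The promoters of the pair are shown because the 2 genes moved together in both knockouts. Each window runs from 250 bases before to 50 bases after the transcription start (RefSeq, GRCm38.p6), 5′ to 3′ on the minus strand, at chr17:34972107-34972406 for Hspa1a and chr17:34959189-34959488 for Hspa1b. Capitals mark matches to GAANNTTC or TTCNNGAA, which are 2 facing heat shock units and read the same on both strands.
Hspa1a: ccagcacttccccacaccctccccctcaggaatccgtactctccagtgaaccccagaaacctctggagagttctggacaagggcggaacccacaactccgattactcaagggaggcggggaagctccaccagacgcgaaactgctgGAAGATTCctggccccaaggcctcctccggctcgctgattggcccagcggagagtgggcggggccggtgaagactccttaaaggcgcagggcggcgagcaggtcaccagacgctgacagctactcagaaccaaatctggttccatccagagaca
Hspa1b: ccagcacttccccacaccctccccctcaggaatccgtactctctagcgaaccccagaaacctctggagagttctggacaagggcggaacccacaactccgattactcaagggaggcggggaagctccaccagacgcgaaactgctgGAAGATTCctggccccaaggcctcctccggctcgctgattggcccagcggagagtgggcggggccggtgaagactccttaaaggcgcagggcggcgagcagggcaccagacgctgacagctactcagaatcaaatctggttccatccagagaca
The windows differ at 4 of 300 positions, counted from 1 at the 5′ end with the Hspa1a base first: C44T, T47C, T249G and C276T. Both hold GAAGATTC at positions 147 to 154. One or the other motif occurs in 15.1% of the 32817 promoter windows of the RefSeq table, GAANNTTC in 7.86% and TTCNNGAA in 8.51%. The table has 12 windows for 7 of the 10 genes, and 7 of these windows, of every gene but Dnajb1, hold a match. The HSP70 pair is nearly identical and the Hsph1 windows and those of Hspe1 and Hspd1 overlap. The windows are therefore not independent, and their count cannot be set against the share of all windows. A match is a run of letters and not a measured binding site.

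Hspa8, the constitutive cytosolic HSP70 that folds new proteins, uncoats clathrin vesicles and delivers substrates to chaperone-mediated autophagy, lies on chromosome 9 at 40800984 to 40810087 on the plus strand. It had 1469.9, 1837, 1358 and 1254 CPM in DKO libraries and 1324, 1111 and 1225 CPM in KO libraries, against 637, 761, 894 and 842 CPM in WT libraries. All 7 knockout libraries lay above all 4 wild-type libraries, and DKO and KO overlapped. The difference was 0.92 ± 0.14 for DKO against WT, or 1.89-fold (adjusted p = 0.000175), and 0.64 ± 0.15 for KO against WT, or 1.56-fold (adjusted p = 0.00755). It was 0.28 ± 0.15 for DKO against KO and did not pass the test (adjusted p = 0.588). Without the Xist libraries the DKO against WT value was 0.72 (adjusted p = 0.101), and with the immediate early genes as a covariate 0.55 (adjusted p = 0.218). Within the larger run it was 1.08 (adjusted p = 0.00083). The KO call was narrowly lost only without KO replicate 1, at 0.58 (adjusted p = 0.0505). The small nucleolar RNA genes Snord14c, Snord14d and Snord14e lie inside Hspa8 on the same strand.

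Hsph1, the HSP110 nucleotide exchange factor of HSP70, went the other way, on chromosome 5 at 149614287 to 149636376 on the minus strand. It had 26.5, 26.7, 30.7 and 19.2 CPM in DKO libraries and 29.2, 16.8 and 24.1 CPM in KO libraries, against 30.4, 34.7, 35.4 and 48.2 CPM in WT libraries. The KO libraries all lay below the WT libraries, by a narrow gap between KO replicate 1 and WT replicate 1, and DKO replicate 3 overlapped the WT range. The difference was -0.53 ± 0.20 for DKO against WT (adjusted p = 0.0621), which did not pass the test, and -0.67 ± 0.22 for KO against WT, or 1.59-fold lower (adjusted p = 0.044), which did. The KO call held in 8 of 24 settings, with adjusted p from 0.00775 to 0.158, while the value stayed between -0.87 and -0.47. Without KO replicate 2, the lowest, it was -0.48 (adjusted p = 0.158).

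The promoters of Hsph1 and Hspe1 are shown beside those of the HSP70 pair because they hold more matches to the same motifs. Only exact matches count, so imperfect or otherwise spaced units are not marked. Neither gene was called higher in a knockout, and both were picked with their calls known. A link between matches and calls was not tested. Hsph1 is at chr5:149636287-149636586 on the minus strand, its first of 2 overlapping windows, and Hspe1 at chr1:55087898-55088197 on the plus strand.
Hsph1: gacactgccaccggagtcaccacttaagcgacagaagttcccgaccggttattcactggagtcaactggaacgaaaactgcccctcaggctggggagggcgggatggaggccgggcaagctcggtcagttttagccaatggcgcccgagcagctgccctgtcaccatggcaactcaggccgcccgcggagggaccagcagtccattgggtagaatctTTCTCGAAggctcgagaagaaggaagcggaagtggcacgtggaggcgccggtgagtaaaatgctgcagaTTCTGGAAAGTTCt
Hspe1: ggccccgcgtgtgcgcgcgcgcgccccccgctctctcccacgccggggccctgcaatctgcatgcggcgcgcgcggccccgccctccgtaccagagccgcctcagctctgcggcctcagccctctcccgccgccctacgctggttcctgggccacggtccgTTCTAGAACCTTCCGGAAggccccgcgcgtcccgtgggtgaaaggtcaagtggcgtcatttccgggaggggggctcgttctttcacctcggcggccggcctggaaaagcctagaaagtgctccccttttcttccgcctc
Hsph1 holds TTCTCGAA at positions 218 to 225 and TTCTGGAAAGTTC at 287 to 299, which lies past the start, and Hspe1 holds the adjoining run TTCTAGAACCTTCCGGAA at positions 162 to 179. A run of 3 units, GAANNTTCNNGAA or TTCNNGAANNTTC, occurs in 0.603% of all windows and in 4 of the 12 windows of these genes, those of Hsph1, of Hspe1 and 1 of Hspd1. The Hspe1 window shares 285 bases with 1 of the Hspd1 windows, read on the other strand, so these matches are shared and are not independent.

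Dnaja1 and Dnajb1 encode HSP40 J-domain proteins that stimulate the ATPase of HSP70, and they differed in their calls. Dnajb1, the stress-inducible class B form on chromosome 8 at 83608193 to 83612653 on the plus strand, had 15.5, 10.8, 10.3 and 8.72 CPM in DKO libraries and 7.95, 6.77 and 5.58 CPM in KO libraries, against 3.91, 5.01, 5.10 and 8.57 CPM in WT libraries. The DKO libraries lay above all others, by a narrow gap to WT replicate 4, and KO and WT overlapped. It was 0.99 ± 0.26 higher in DKO than in WT, or 1.99-fold (adjusted p = 0.0103), 0.26 ± 0.29 in KO against WT (adjusted p = 0.587) and 0.73 ± 0.28 in DKO against KO (adjusted p = 0.394). The DKO call was lost without the Xist libraries, at 0.54 (adjusted p = 0.616), with Xist as a covariate, at 0.90 (adjusted p = 0.0659), and with the immediate early genes as a covariate, at 0.96 (adjusted p = 0.294). Within the larger run it was 1.2 (adjusted p = 0.0188). Only 333 counts of Dnajb1 were present over all 11 libraries.

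Dnaja1, the farnesylated class A form on chromosome 4 at 40722150 to 40737149 on the plus strand, had 51.8, 69.8, 58.3 and 37.5 CPM in DKO libraries and 35.6, 28.2 and 44.0 CPM in KO libraries, against 35.2, 34.7, 62.0 and 30.4 CPM in WT libraries. WT replicate 3, the wild-type library with Xist, stood among the DKO values, and no pair of groups was apart. The differences were 0.41 ± 0.24 for DKO against WT (adjusted p = 0.219), -0.19 ± 0.26 for KO against WT (adjusted p = 0.666) and 0.60 ± 0.26 for DKO against KO (adjusted p = 0.484), and none passed. Without WT replicate 3 the DKO against WT value was 0.68 and passed (adjusted p = 0.0231). Dnaja1 overlaps Smu1 and Gm6297 on the other strand and the microRNA gene Mir207.

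Both cytosolic HSP90 genes were called higher in the double knockout, whereas in the Raptor knockout Hsp90ab1 passed and Hsp90aa1 did not. Hsp90ab1, the constitutive HSP90 beta on chromosome 17 at 45567775 to 45573271 on the minus strand, had 3335, 2299, 2659 and 2466 CPM in DKO libraries and 2578, 2699 and 2369 CPM in KO libraries, against 1701, 1863, 1449.5 and 1804 CPM in WT libraries. Both knockouts lay above all wild-type libraries and overlapped each other. The difference was 0.66 ± 0.13 for DKO against WT, or 1.58-fold (adjusted p = 0.00146), and 0.58 ± 0.14 for KO against WT, or 1.5-fold (adjusted p = 0.00874). It was 0.08 ± 0.14 for DKO against KO (adjusted p = 0.919). Without the Xist libraries the values were 0.44 (adjusted p = 0.269) for DKO and 0.48 (adjusted p = 0.0519) for KO against WT, while with the immediate early genes as a covariate the DKO against WT value was 0.90 and passed (adjusted p = 0.0376).

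Hsp90aa1, the inducible HSP90 alpha, which in zebrafish muscle works with Unc45b in folding myosin, lies on chromosome 12 at 110690605 to 110702728 on the minus strand. It had 278, 235, 267 and 183 CPM in DKO libraries and 142, 160.0 and 125 CPM in KO libraries, against 109, 127, 193 and 126 CPM in WT libraries. DKO libraries lay above all KO libraries, KO and WT overlapped, and WT replicate 3 stood above DKO replicate 4. The difference was 0.79 ± 0.18 for DKO against WT, or 1.73-fold (adjusted p = 0.00322), and 0.03 ± 0.19 for KO against WT (adjusted p = 0.93). For DKO against KO it was 0.76 ± 0.19, or 1.69-fold, with an unadjusted p of 0.00115 and an adjusted p of 0.157; it passed in 3 of 24 settings. Without the Xist libraries the DKO against WT value was 0.58 (adjusted p = 0.202) and the DKO against KO value 0.37, and with the immediate early genes as a covariate the DKO against WT value was 0.12 (adjusted p = 0.837).

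**Figure D2:**
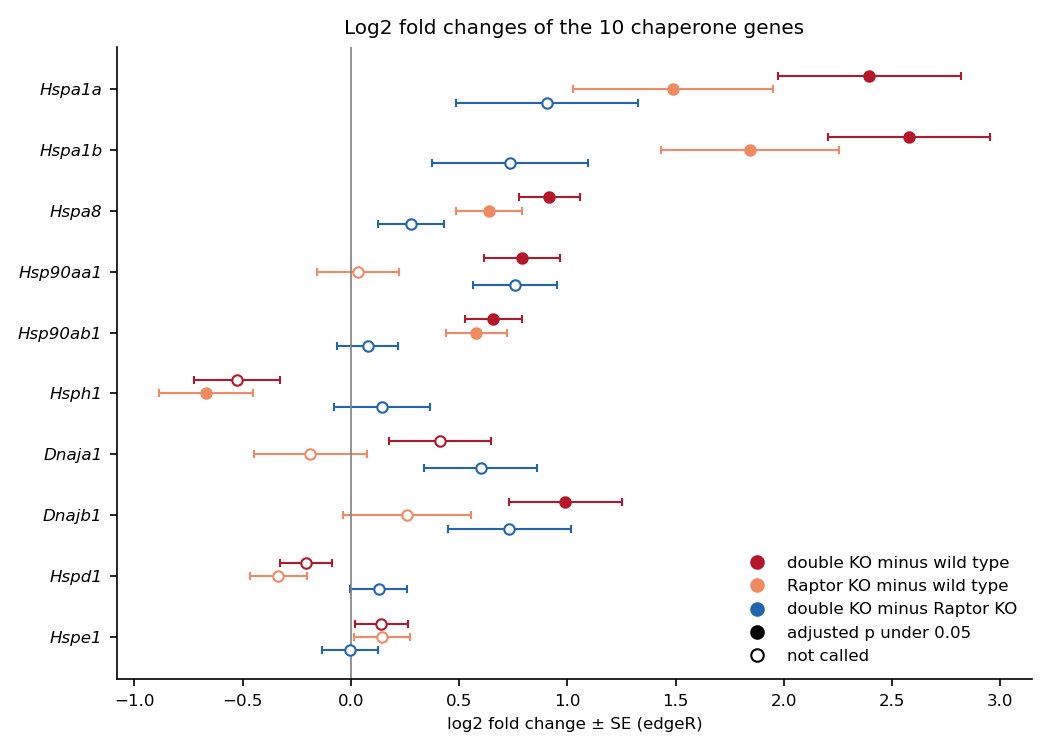
Log2 fold change with its SE (x axis, edgeR) of each gene for double knockout minus wild type (red), Raptor knockout minus wild type (orange) and double knockout minus Raptor knockout (blue); filled points have an adjusted p under 0.05. Hspa1a and Hspa1b stand at 2.40 and 2.58 in the double knockout and 1.49 and 1.84 in the Raptor knockout, and no double knockout minus Raptor knockout point is filled.

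Hspd1 and Hspe1 encode HSP60 and HSP10, the mitochondrial folding chamber and its lid. They are neighbours read in opposite directions on chromosome 1, Hspd1 at 55077835 to 55088243 on the minus strand and Hspe1 at 55088132 to 55091307 on the plus strand, and overlap by 112 bases at their starts. Hspd1 had 143, 137, 152 and 159.8 CPM in DKO libraries and 122, 147 and 137 CPM in KO libraries, against 159, 159, 165 and 199 CPM in WT libraries. Hspe1 had 151, 160.3, 138 and 135 CPM in DKO libraries and 156, 132 and 151 CPM in KO libraries, against 128, 134, 149 and 118 CPM in WT libraries. The KO libraries lay below the WT libraries for Hspd1, and all groups overlapped for Hspe1. Hspd1 differed by -0.21 ± 0.12 in DKO against WT (adjusted p = 0.227) and by -0.33 ± 0.13 in KO against WT (adjusted p = 0.0901). Hspe1 differed by 0.14 ± 0.12 in DKO against WT (adjusted p = 0.419) and by 0.15 ± 0.13 in KO against WT (adjusted p = 0.479). Neither gene passed in any comparison, and between DKO and KO the values were 0.13 ± 0.13 for Hspd1 and -0.00 ± 0.13 for Hspe1. Pseudogenes could draw reads from either gene. The deposited rows of pseudogenes named after Hspd1 and Hspe1 reached at most 6 counts in a library, but copies under other names were not looked at. Counts held parts of reads in 7 libraries for Hspd1 and in 11 for Hspe1. The sharing of reads with other genes was not tested.

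Counted by separation, 5 of the 10 genes lay wholly above the wild type in DKO, namely Hspa1a, Hspa1b, Hspa8, Hsp90ab1 and Dnajb1, where 26.8% of all tested genes were apart in either direction and 13.1% were above. In KO 4 lay wholly above and 2, Hsph1 and Hspd1, wholly below, where 27.3% of all genes were apart, 14.0% above and 13.2% below. Between DKO and KO 2 were apart, Hsp90aa1 and Dnajb1, both higher in DKO, where 12.2% of all genes were apart and 5.18% were higher.

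The make-up of each pair was read as a share of counts, which needs no scaling between libraries. Hspa1a and Hspa1b made up 3.25% ± 1.19 of the counts of Hspa1a, Hspa1b and Hspa8 together in DKO (SD, n = 4) and 2.32% ± 0.22 in KO (n = 3), against 1.11% ± 0.44 in WT (n = 4). Single DKO libraries held 4.46, 3.71, 3.19 and 1.64%, and single WT libraries 0.894, 1.25, 1.65 and 0.638%, so DKO replicate 4 met the wild-type range while the KO libraries, at 2.16 to 2.56%, stayed above it. Hsp90aa1 made up 8.25% ± 1.14 of cytosolic HSP90 counts in DKO and 5.28% ± 0.29 in KO, against 7.67% ± 2.71 in WT, where replicate 3 had 11.7% and the other 3 libraries 6.04 to 6.53%. The KO libraries, at 5.03 to 5.6%, lay below both other groups. Hspe1 made up 49.7% ± 3.72 of the HSP60 and HSP10 counts in DKO and 52.0% ± 4.46 in KO, against 43.8% ± 4.56 in WT. In two-sided exact permutation tests of the 9 differences none passed after Benjamini-Hochberg adjustment: the lowest p was 0.0571 (adjusted p = 0.129), which is the smallest that 4 against 3 libraries allow, while 4 against 4 allow 0.0286. Without the Xist libraries the HSP70 share differed by 0.713 percentage points between DKO and WT, against 2.14 with them, and by -0.675 between DKO and KO, against 0.935 with them.

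**Figure D3:**
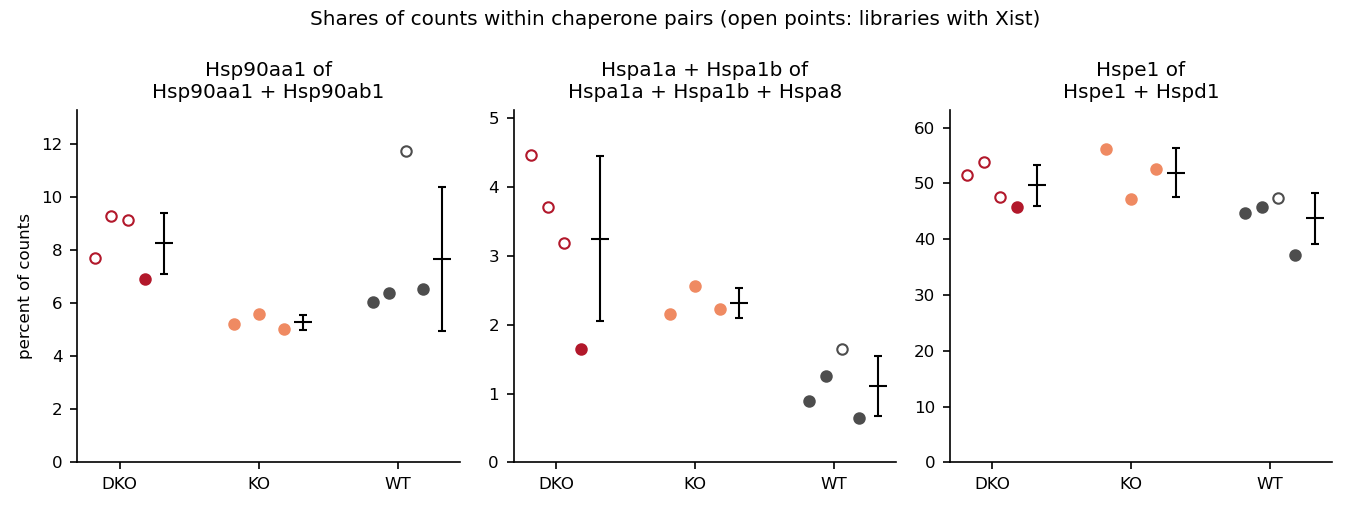
Share of counts in percent (y axis, from 0) of Hsp90aa1 within the HSP90 pair, of Hspa1a plus Hspa1b within Hspa1a, Hspa1b and Hspa8 and of Hspe1 within the HSP60 and HSP10 pair, by library and genotype, with the mean and SD beside each group and open points for libraries with Xist. The inducible HSP70 share is 3.25% in DKO and 2.32% in KO on average, against 1.11% in WT, and the open WT point at 11.7% for HSP90 stands apart from the other WT libraries.

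Levels were compared between genes on the deposited TPM (transcripts-per-million) scale, which divides by transcript length. In DKO the order of mean TPM was Hsp90ab1 (1574), Hspa8 (722), Hsp90aa1 (373), Hspe1 (198), Hspd1 (59.8), Dnaja1 (15.5), Hspa1a (9.75), Hsph1 (7.72), Hspa1b (7.67) and Dnajb1 (3.91). In KO the 4 most abundant were Hsp90ab1 (1373), Hspa8 (574), Hspe1 (192) and Hsp90aa1 (183), and in WT Hsp90ab1 (916), Hspa8 (343), Hsp90aa1 (189) and Hspe1 (162). Hsp90aa1 and Hspe1 overlapped in KO and in WT but not in DKO, where Hsp90aa1 was above. In WT the HSP70 pair stood last, at 1.65 TPM for Hspa1a and 1.09 TPM for Hspa1b, overlapping Dnajb1 at 1.71 TPM, and Hsph1 at 9.85 TPM was well above them. In DKO each gene from Dnaja1 to Dnajb1 overlapped the next, and the 5 above them did not overlap. In KO the lower genes were Hspd1 (52.9), Dnaja1 (9.88), Hsph1 (6.64), Hspa1a (4.96), Hspa1b (4.42) and Dnajb1 (2.23), where Dnaja1 to Hspa1b overlapped in turn. In WT Hspd1 (61.6) stood apart, and Dnaja1 (10.6) overlapped Hsph1. Since a 3′ tag count does not grow with length, this division raises short transcripts: Hspd1 and Hspe1 had 148 and 146 mean CPM in DKO but 59.8 and 198 mean TPM. The order therefore depends on the scale. In WT, Hspd1 had 171 mean CPM, above Hsp90aa1 (139) and Hspe1 (132). Hsp90aa1, with 8 annotated transcripts, had 241 mean CPM but 373 mean TPM in DKO, and the part of the assignment of reads to transcripts was not tested.

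Library by library, the genes did not vary as 1 block around their group means. Over the 11 libraries, with each group centred, Pearson's r of log2 CPM was 0.86 between Hspa1a and Hspa1b (Spearman's rho 0.80) and 0.89 between Hspa1b and Hsp90aa1 (rho 0.89). It was 0.83 between Dnaja1 and Hspe1 (rho 0.83) and 0.03 between Hsp90aa1 and Hsp90ab1 (rho 0.10). The divergent pair Hspd1 and Hspe1 had an r of -0.80 (rho -0.75). These are descriptions of points that share the run, depth and scaling of a library and are given with no test. WT replicate 3 and DKO replicate 4 also differed from the rest of their groups in Xist and in the immediate early gene mean. Their part in these r was not tested. The genes listed next are the 5 highest by r, so high values are picked by the rule, and a link was not tested. Among 6404 genes with a mean log2 CPM of at least 3, the deviations most like those of the summed HSP70 pair were those of Tacc2 (r = 0.97), Rchy1 (0.93), Hnrnpa3 (0.93), Adamts2 (0.91) and Mapre2 (0.91), and none of these 5 passed the test in any comparison. For Hsp90aa1 they were P4ha1 (0.90), Ddx3x (0.90), Emp1 (0.89), Adamts2 (0.89) and Atf6 (0.88), of which Emp1 passed in DKO against WT and Emp1 and Ddx3x in KO against WT. For Hspd1 they were Tmed1 (0.94), Xpo7 (0.93), Rgs2 (0.92), Slc25a36 (0.91) and Zc3hc1 (0.91), of which Rgs2 passed in both comparisons with WT.

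**Figure D4:**
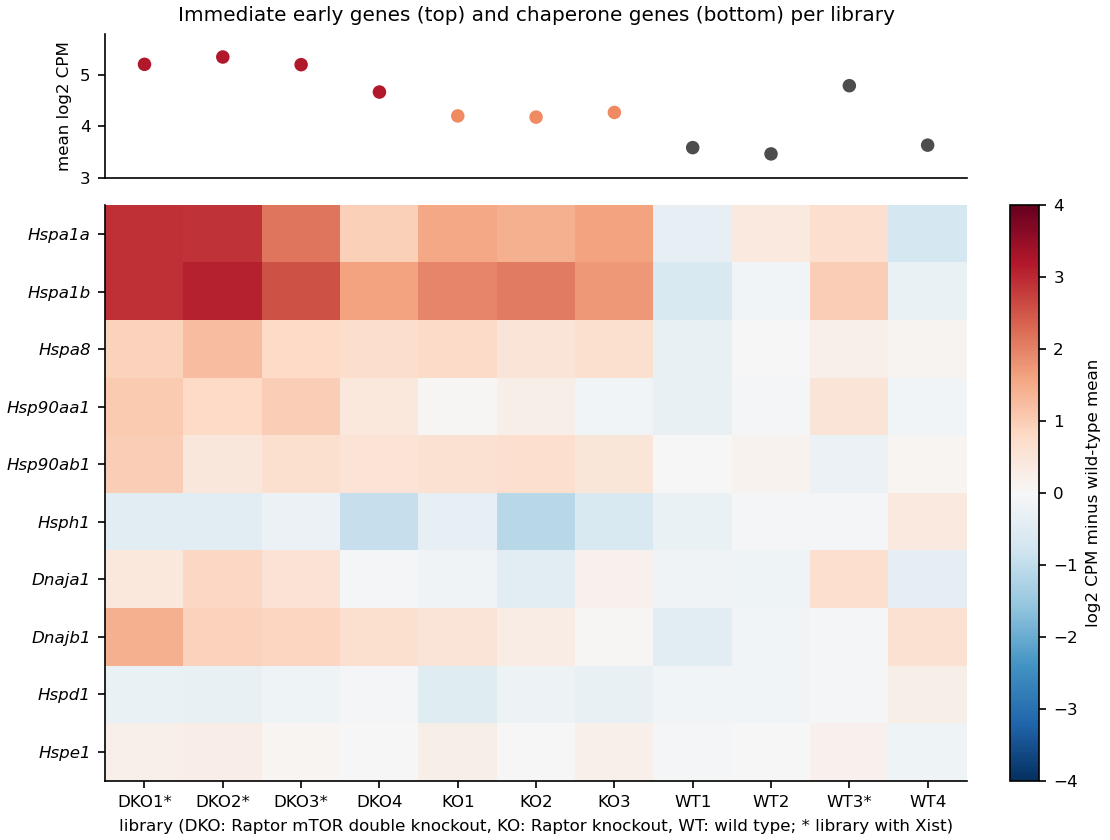
The top panel gives the mean log2 CPM of 19 immediate early genes in each library, and the grid gives log2 CPM of each chaperone gene minus its wild-type mean (red above, blue below), for double-knockout (DKO), Raptor-knockout (KO) and wild-type (WT) libraries; an asterisk marks a library with Xist. DKO replicates 1 to 3 show the highest Hspa1a and Hspa1b values and the highest immediate early gene means, from 5.20 to 5.35, and WT replicate 3 stands at 4.79.

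The wider chaperone network was read from 8 lists of genes around these 10, some of which share genes. Their counts stand beside 26.7% of all tested genes called in DKO and 18.2% in KO against WT. The counts and calls in these lists come from the fit of all 11 libraries with no covariate. Calls over all genes were fewer in some of the alternatives given at the end. Among 11 other HSP70 and HSP110 proteins 1 was called higher in DKO than in WT and 0 in KO, with a median log2 fold change of 0.19 in DKO and -0.11 in KO. The riser was Hyou1, an HSP110-type chaperone of the endoplasmic reticulum, at 18.3 ± 3.42 CPM in DKO and 12.3 ± 2.24 CPM in WT (SD, n = 4 each; log2 fold change 0.55 ± 0.19, adjusted p = 0.0387). Of 36 other HSP40 J-domain proteins 1 was called higher and 8 lower in DKO, and 1 higher and 7 lower in KO, with medians of -0.10 in DKO and -0.12 in KO. Taken in both directions together, these counts are near the share over all genes. Dnajc27, a small GTPase with a J domain, had 16.9 ± 2.35 CPM in DKO and 17.3 ± 2.79 CPM in KO, against 40.6 ± 9.53 CPM in WT, and fell in both comparisons (log2 fold change -1.26 ± 0.19, adjusted p = 0.00011, in DKO and -1.23 ± 0.20, adjusted p = 0.000562, in KO). Dnajc28 fell in both, by 1.21 ± 0.19 on the log2 scale in DKO (adjusted p = 0.000185) and by 0.88 ± 0.20 in KO (adjusted p = 0.00592). Dnajb14, a J protein of the endoplasmic reticulum membrane, fell in both (adjusted p = 0.0149 in DKO and 0.0453 in KO). Dnajc14 fell to 3.88 ± 0.724 CPM in DKO, against 7.83 ± 2.36 CPM in WT (adjusted p = 0.0127), and had 6.43 ± 0.866 CPM in KO, which did not pass against WT (adjusted p = 0.53).

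Of 12 HSP70 cofactors 2 were called higher and 1 lower in DKO, and 2 higher and 0 lower in KO, with medians of 0.15 in DKO and 0.11 in KO. Both counts are near the share over all genes. Bag1, a nucleotide exchange factor of HSP70, had 109.9 ± 10.4 CPM in DKO and 104 ± 14.2 CPM in KO, against 75.8 ± 11.1 CPM in WT (adjusted p = 0.0105 in DKO and 0.0471 in KO). Grpel1, the exchange factor of mitochondrial HSP70, had 47.6 ± 6.85 CPM in DKO and 47.7 ± 5.74 CPM in KO, against 34.1 ± 3.45 CPM in WT (adjusted p = 0.0244 in DKO and 0.0443 in KO). Bag2, which opposes the ligase CHIP on HSP70, fell to 8.78 ± 2.18 CPM in DKO, against 15.9 ± 2.34 CPM in WT (adjusted p = 0.00438). Of 24 HSP90 co-chaperones and organelle HSP90 proteins 0 were called higher in either knockout, 2 lower in DKO and 3 lower in KO, with medians of -0.12 in DKO and -0.13 in KO. The organelle HSP90 proteins in this list were not called. In DKO against WT their log2 fold changes were 0.06 ± 0.18 for Hsp90b1 of the endoplasmic reticulum (adjusted p = 0.85) and -0.13 ± 0.14 for Trap1 of the mitochondrion (adjusted p = 0.552). Unc45b, the muscle co-chaperone for myosin, had 75.3 ± 7.88 CPM in DKO and 75.5 ± 11.5 CPM in KO, against 112 ± 14.5 CPM in WT (adjusted p = 0.00759 in DKO and 0.0188 in KO). Fkbp4, an HSP90-bound immunophilin of steroid receptors, had 70.7 ± 2.6 CPM in DKO and 65.8 ± 3.61 CPM in KO, against 102 ± 29.2 CPM in WT, where replicate 4 stood at 145 CPM (adjusted p = 0.0246 in DKO and 0.0218 in KO). Fkbp5, an HSP90-bound immunophilin induced by glucocorticoids, was called lower in KO against WT (log2 fold change -1.15 ± 0.22, adjusted p = 0.00179). It differed by -0.13 ± 0.19 in DKO against WT (adjusted p = 0.656) and by 1.02 ± 0.22 in DKO against KO (adjusted p = 0.105).

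Of 6 heat shock factors and their binding proteins 3 were tested and none was called in either knockout. Hsf1, the main activator of the heat shock genes, differed by -0.35 ± 0.17 in DKO against WT (adjusted p = 0.155) and by -0.22 ± 0.19 in KO against WT (adjusted p = 0.457). Hsf2 differed by 0.41 ± 0.15 (adjusted p = 0.0599) and 0.35 ± 0.17 (adjusted p = 0.162) in the same comparisons, and Hsbp1, which binds heat shock factor 1, by 0.13 ± 0.11 and 0.14 ± 0.12. RNA levels do not show whether a factor was active.

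The cytosolic chaperonin, a ring that folds actin and tubulin, and prefoldin, which hands substrates to it, were called in 1 direction: 7 of 16 tested genes were higher and 0 lower in DKO, and 5 higher and 0 lower in KO, with medians of 0.29 in DKO and 0.20 in KO. Over all tested genes 13.0% were called higher in DKO and 8.73% in KO. Cct4, a ring subunit, had 140.0 ± 8.24 CPM in DKO and 126 ± 1.81 CPM in KO, against 69.1 ± 3.44 CPM in WT, or 2.03-fold higher in DKO (adjusted p = 8.1e-06) and 1.82-fold higher in KO (adjusted p = 0.000134). Tcp1, another ring subunit, was 1.5-fold higher in DKO (adjusted p = 0.00125) and 1.40-fold higher in KO (adjusted p = 0.011), Cct2 1.38-fold (adjusted p = 0.00569) and 1.31-fold (adjusted p = 0.0326), and the prefoldin subunit Pfdn5 1.46-fold (adjusted p = 0.00568) and 1.34-fold (adjusted p = 0.0464). Of 18 tested chaperones of the endoplasmic reticulum 4 were called higher and 0 lower in DKO, and 1 higher and 1 lower in KO, with medians of 0.23 in DKO and -0.01 in KO. Taken in both directions together, the DKO count is near the share over all genes. P4hb, a protein disulfide isomerase, had 129 ± 14.1 CPM in DKO and 114 ± 11.1 CPM in KO, against 71 ± 5.92 CPM in WT (adjusted p = 0.000112 in DKO and 0.00239 in KO), and Serpinh1, the collagen chaperone, had 25.4 ± 10.3 CPM in DKO, against 11.9 ± 3.74 CPM in WT (adjusted p = 0.0261). Fibroblast marker sums, given above, were also higher in DKO, and their part in the Serpinh1 result was not tested. Of 14 mitochondrial chaperones and proteases 2 were higher and 2 lower in DKO, and 3 higher and 1 lower in KO, with medians of 0.01 in DKO and 0.10 in KO. The DKO count, in both directions together, is also near the share over all genes. Spg7 and Afg3l2, subunits of the same inner-membrane protease, went opposite ways: Spg7 had 53.4 ± 2.79 CPM in DKO and 54.9 ± 6.08 CPM in KO, against 87.6 ± 7.93 CPM in WT, and Afg3l2 47.5 ± 4.31 CPM in DKO and 58.8 ± 3.81 CPM in KO, against 34.8 ± 1.54 CPM in WT. All 4 of these differences passed the test, with adjusted p from 0.000602 to 0.0173. Between DKO and KO 0 genes of these 8 lists were called by edgeR, where 0.0286% of all tested genes, or 3, were called.

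**Figure D5:**
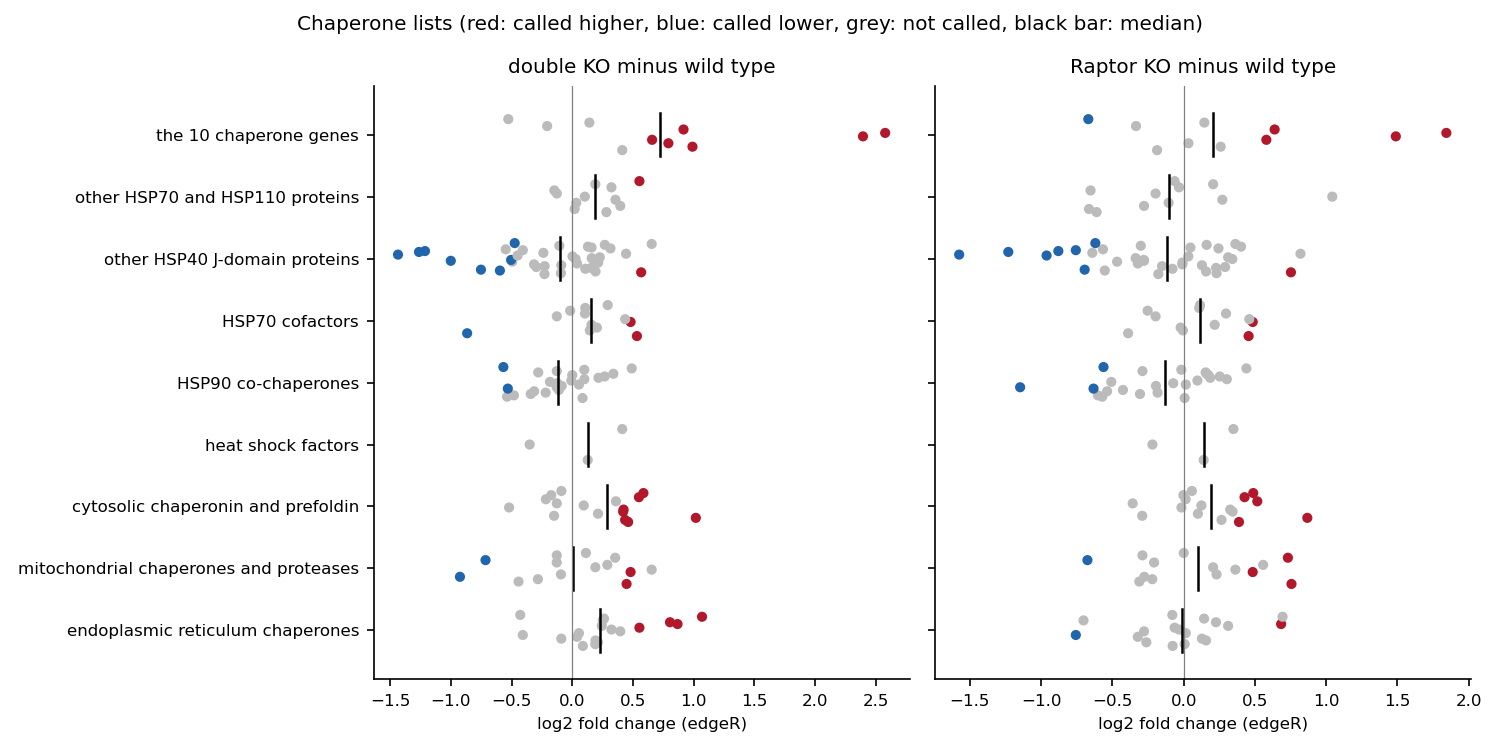
Log2 fold changes (x axis, edgeR) of all tested genes of the 10 chaperone genes and of 8 other chaperone lists, for double knockout minus wild type (left) and Raptor knockout minus wild type (right); red and blue points were called higher and lower at an adjusted p under 0.05, grey points were not called, and the black bar is the list's median. The cytosolic chaperonin and prefoldin list holds red points and no blue ones in both panels, and the HSP90 co-chaperone list holds blue points and no red ones.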

How the data were processed

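The authors deposited expected counts, estimated with RSEM and not normalized, for each gene and library, and TPM (transcripts-per-million) per library; fastp 0.20.0, STAR 2.7.0, RSEM 1.3.3 and the builds GRCm38 and mm10 are named, per the submitters' processing notes. No source used here states the annotation release, the filters or the strand setting. Libraries were made with the QuantSeq 3′ mRNA FWD kit from 450 ng of total RNA, per the labels' protocols. Of the deposited count values 2.25% were not whole (tolerance 0.005), and they were rounded (largest shift of a library's total, 30.2 counts). Left out were 6 columns whose names fit no label. Gene IDs were matched to symbols and positions with GENCODE M21 (55141 of 55487 matched), and promoter windows came from RefSeq.

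The 10 genes, the other lists and the tests were chosen with earlier results of these data known. Replicates were numbered in the order of the sample records. The p-values weigh differences between groups against the spread between libraries. The test was that of edgeR 4.0.16 (R 4.3.3), after filterByExpr by genotype (minimum count 10) and TMM scaling, with a robust quasi-likelihood fit of all 11 libraries in 3 groups with no covariate, and the two-sided quasi-likelihood F test. Benjamini-Hochberg adjustment ran over the 10505 tested genes (99.5% of counts) within each comparison, and calls needed an adjusted p under 0.05. The SE is the log2 fold change divided by the square root of F. The biological coefficient of variation was 20.6%, with 8 residual degrees of freedom. CPM are TMM-scaled. The 2 comparisons with wild type share the 4 wild-type libraries. Shares were tested in Python 3.11.15 with SciPy 1.17.1.

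All 10 genes were named; from each other list the rule named at most the 4 genes of lowest adjusted p called in DKO against WT, or, with no call there, the 2 most abundant. From the 8 chaperone lists genes are named, and the marker and immediate early lists are given as sums or means, with the called myofibre markers also named. Hsf1, Fkbp5, Hsp90b1 and Trap1 are named outside this rule, after their values were seen. The alternatives tried were size factors of DESeq2 or plain library totals, no filter, only the 2 groups compared, sequencing run as a covariate or its smaller part left out, Xist as a covariate or its libraries left out, the immediate early gene mean as a covariate, the DESeq2 1.42.0 Wald test, limma 3.58.1 on log2 TPM (pseudocount 1 or 0.1; mean TPM at least 1), the HSP70 pair summed, and each library left out. The fit was tested on simulated data.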

Additional observations from a re-analysis of the deposited data

Results flagged for a closer look

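Single libraries stood far from the other 3 of their group in 8 of 72 groups of 4 libraries tested, where chance flags about 1 in 20. In each case the gap of the library to its nearest neighbour took up most of the group's range (Dixon's test, 95% critical value). Among the 10 genes, WT replicate 3 had 62.0 CPM of Dnaja1, against 30.4 to 35.2 CPM in the other WT libraries, and WT replicate 4 had 199 CPM of Hspd1, against 159 to 165 CPM in the others. WT replicate 3 had an Hsp90aa1 share of HSP90 counts of 11.7%, against 6.04 to 6.53% in the others. WT replicate 3 was also the wild-type library with Xist and with the highest immediate early gene mean, and the part of either in these values was not tested.

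Among the other chaperone genes, DKO replicate 1 had 107 CPM of Cct2, against 103.7 to 104.0 CPM in the other DKO libraries. WT replicate 1 had 23.7 CPM of Dnajb14, against 18.3 to 18.6 CPM in the others, and WT replicate 2 had 27.5 CPM of Dnajc28, against 20.7 to 21.9 CPM. WT replicate 4 had 145 CPM of Fkbp4, against 80.4 to 91.1 CPM, and 7.89 CPM of Pdia3, against 12.7 to 13.6 CPM.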

How the results depend on the processing

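Of the 10 genes, 6 were called in DKO against WT as reported, 5 to 7 in 22 of the 24 settings tried, and 1 without the Xist libraries (Hspa1b) or with the immediate early genes as a covariate (Hsp90ab1). In KO against WT 5 were called as reported, 6 with the DESeq2 Wald test, 5 in 3 settings, 4 in 13 and 3 in 7, among them without the Xist libraries and with limma on TPM at a pseudocount of 1. In DKO against KO it was 0, and 1 (Hsp90aa1) with no filter, with only the 2 groups compared or with the DESeq2 Wald test. Leaving out each library in turn gave 6 to 7, 3 to 5 and 0 to 0 in that order, with 3 in KO against WT without any 1 of the KO libraries or WT replicate 2 or 4. No paired analysis was possible because the labels carry no shared replicate numbers.

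Over all genes, calls in DKO against WT were 472 without the Xist libraries and 698 with the immediate early genes as a covariate, against 2802 as reported; in KO against WT they were 1265 without the Xist libraries and 1140 to 2413 with single libraries left out, against 1908; in DKO against KO they were 105 with no filter, 157 with 2 groups, 103 with DESeq2, 0 with Xist or the immediate early genes as a covariate or without the Xist libraries, and 0 to 97 with single libraries left out, against 3. Library totals in place of TMM raised the median of all genes by 0.23 in DKO and 0.20 in KO against WT and turned the split of higher and lower calls to 2421 and 844 (against 1367 and 1435) in DKO and to 1638 and 573 (against 917 and 991) in KO. Limma on TPM with a pseudocount of 1 gave 1766 and 779 in DKO and 1031 and 519 in KO, and with 0.1 it gave 1736 and 765 in DKO and 1025 and 507 in KO, with shifts of the median from 0.10 to 0.17.

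Signs turned in DKO against KO for Hspa1a (-0.29 with Xist as a covariate, -0.57 without the Xist libraries, -0.23 with the immediate early genes), Hspa1b (-0.41, -0.32 and -0.61 in the same order), Hsp90ab1 (-0.039 without the Xist libraries), Hsph1 (-0.030 with Xist as a covariate, -0.27 without the Xist libraries) and Dnaja1 (-0.038 with Xist as a covariate, -0.15 with the immediate early genes). Hspe1, near 0, turned to 0.0042 with DESeq2 size factors, 0.033 with library totals, 0.0049 with no filter, 0.0094 with only the 2 groups, 0.090 with run as a covariate or without the smaller run, 0.0019 with the DESeq2 Wald test and 0.045 with limma at either pseudocount. In DKO against WT, Dnaja1 (-0.55) and Hspe1 (-0.11) turned with the immediate early genes and Hspd1 (0.028) with library totals. In KO against WT, Hsp90aa1 turned to -0.020 with no filter, -0.023 with limma and -0.13 with the immediate early genes, and Dnaja1 to 0.067 with Xist as a covariate and 0.072 without its libraries. Hyou1 turned to 0.13 with library totals, 0.026 with Xist as a covariate, and 0.053 and 0.076 with limma. Leaving out each library gave ranges across 0 of -0.034 to 0.15 for Hsp90ab1, -0.049 to 0.34 for Hsph1 and -0.075 to 0.041 for Hspe1 in DKO against KO, and of -0.061 to 0.20 for Hsp90aa1, -0.36 to 0.061 for Dnaja1, -0.15 to 0.022 for Hyou1 and -0.31 to 0.46 for Pdia3 in KO against WT. The inducible HSP70 share turned to -0.675 percentage points in DKO against KO without the Xist libraries. None of the turned log2 values was called, and the cause was not tested. The immediate early gene mean did not overlap between DKO and KO, so fits with it compare them at a level that they did not share. Dnajb1 and the HSP70 pair rest on few reads per library.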
